A study of Mus musculus with 6 samples.

Results

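The 9 genes described here are Inhba, Inhbb, Tgfb1, Tgfb2, Tgfb3, Gdf10, Tgfbi, Tgfbr2 and Acvr2a, the activin and TGF-β ligands of embryonic skin with a ligand of the same superfamily, a TGF-β-induced matrix gene and a pair of receptors, out of 28000 genes measured. They were read in fibroblasts, meaning cells with at least 15 unique molecular identifiers (UMIs) of Col1a1, Col1a2 and Col3a1 together, in keratinocytes, meaning cells with at least 10 UMIs of Krt5, Krt14, Krt15 and Epcam together, and in 8 further classes set by markers. Inhba and Gdf10 were picked for their change in the loss-of-function (LOF) embryos, so for these the LOF values are a description with no test. All 9 passed the filter on low counts in fibroblasts.

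Whole dorsolateral and flank skin of CD1 mouse embryos, pooled over 3 to 4 embryos per library and sorted for live cells, was profiled with droplet single-cell RNA sequencing (10x Genomics, 3′ chemistry), with 1 library of E14.5 LOF, 2 of E14.5 control, 1 of E13.5 LOF and 2 of E13.5 control skin, where E is the embryonic day. LOF embryos were PDGFRalphaCreER(Lo);beta-catfl/fl;mTmG: a Cre recombinase that tamoxifen switches on, driven by Pdgfra and so directed at dermal fibroblasts, removes floxed beta-catenin, the transducer of canonical Wnt signals, and turns the mTmG reporter from tdTomato to eGFP. Tamoxifen was given at E11.5. Ctnnb1, the gene of beta-catenin, was at 198 CPM in E14.5 LOF fibroblasts, against 183 and 177 CPM in E14.5 controls, and at 248 CPM in E13.5 LOF fibroblasts, against 195 and 180 CPM in E13.5 controls. It was not lower in LOF at either stage, and whether these 3′ counts cover the floxed exons is not given, so they do not check the deletion. Controls were labelled WT, and whether they received tamoxifen is not given in the sources used here, so genotype and drug cannot be told apart. The labels do not say that libraries of a group came from separate litters, so p-values measure the spread between libraries, which may be technical.

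Libraries held 6096 to 9152 barcodes and 53461986 to 86446575 UMIs, with 45 to 103 barcodes shared between any pair of libraries. Levels are in CPM, the UMIs of a gene per 1000000 UMIs of a class in a library. Fibroblasts numbered 2861 to 4526 per library and keratinocytes 714 to 2101, with median UMIs per cell of 7300 to 10187 and 10228 to 15885. Lum, a proteoglycan gene of fibroblasts, was at 936 to 2359 CPM in fibroblasts and 8.09 to 49.8 CPM in keratinocytes, which gives the level that a fibroblast transcript reached in the other class. Within fibroblasts the 4 keratinocyte markers summed to 22.7 to 69.8 CPM and the 6 macrophage markers to 3.34 to 8.78 CPM. Several libraries stood apart. Fibroblasts of E14.5 LOF and of E14.5 control replicate 1 held 1144 and 1766 CPM of Gm42418, a ribosomal RNA-overlapping locus, while those of the remaining 4 libraries held 54.1 to 79.8 CPM. Gstp1 reached 124 and 147 CPM in replicate 2 of E14.5 and E13.5 controls, and 22.0 to 32.0 CPM in the remaining 4. The eGFP row was at 318 and 350 CPM in E14.5 and E13.5 LOF fibroblasts, but also at 92.0 and 118 CPM in replicate 2 of the E14.5 and E13.5 controls, against their WT label, and at 5.30 and 2.99 CPM in replicate 1. The tdTomato row was present in controls of both replicate numbers, also against the WT label. At least 1 tdTomato UMI was found in 22.14% and 59.07% of E14.5 control keratinocytes, and in 97.95% and 94.11% of E13.5 control keratinocytes. Where leaving out 1 of the libraries that stood apart changed a call or a direction, both values are given.

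Activins and TGF-βs are secreted dimers that bind a type II receptor, which then activates a type I receptor and through it Smad2 and Smad3. Activins act once released unless follistatin binds them, whereas TGF-βs are stored in the matrix in a latent form and set free by integrins or proteases. In skin these ligands are known for driving fibroblasts to make matrix, for wound repair, and for roles in the growth of hair follicles.

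The promoters of 8 of the 9 genes were found in RefSeq (GRCm38.p6, 250 bases before to 50 after the start site). The 4 shown here belong to the 2 ligands furthest up and the 2 furthest down in Wnt-response fibroblasts, described later. Capitals mark a TCF/LEF heptamer, CTTTG followed by AA, AT, TA or TT on either strand, the letters that the nuclear partners of beta-catenin bind.
Inhba promoter, plus strand, chr13:16011601-16011900: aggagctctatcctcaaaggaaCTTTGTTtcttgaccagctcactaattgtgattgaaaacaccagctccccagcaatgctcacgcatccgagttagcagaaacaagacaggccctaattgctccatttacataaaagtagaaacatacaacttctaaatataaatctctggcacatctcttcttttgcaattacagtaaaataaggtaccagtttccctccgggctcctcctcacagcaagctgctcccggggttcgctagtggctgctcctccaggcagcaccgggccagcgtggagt
Tgfb1 promoter, plus strand, chr7:25686752-25687051: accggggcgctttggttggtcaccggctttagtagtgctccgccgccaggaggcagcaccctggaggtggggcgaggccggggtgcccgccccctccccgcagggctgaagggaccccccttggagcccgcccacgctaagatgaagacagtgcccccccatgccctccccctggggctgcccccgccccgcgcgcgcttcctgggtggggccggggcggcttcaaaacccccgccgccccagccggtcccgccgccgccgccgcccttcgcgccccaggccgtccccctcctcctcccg
Tgfb2 promoter, minus strand, chr1:186705940-186706239: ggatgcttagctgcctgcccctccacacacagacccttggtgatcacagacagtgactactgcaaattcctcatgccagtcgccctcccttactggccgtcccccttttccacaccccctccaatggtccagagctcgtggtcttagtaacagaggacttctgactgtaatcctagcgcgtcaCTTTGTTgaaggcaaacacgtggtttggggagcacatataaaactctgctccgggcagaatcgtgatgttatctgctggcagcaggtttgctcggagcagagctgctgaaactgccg
Gdf10 promoter, plus strand, chr14:33923337-33923636: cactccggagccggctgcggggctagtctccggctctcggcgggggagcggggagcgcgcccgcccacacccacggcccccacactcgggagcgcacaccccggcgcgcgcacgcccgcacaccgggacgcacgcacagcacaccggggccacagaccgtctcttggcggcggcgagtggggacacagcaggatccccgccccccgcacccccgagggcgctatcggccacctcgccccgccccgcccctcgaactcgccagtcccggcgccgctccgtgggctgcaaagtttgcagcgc
The heptamer was present once in Inhba, beginning 228 bases before the start site, and once in Tgfb2, beginning 67 bases before it. The promoters of Inhbb, Tgfb1, Gdf10, Tgfbi, Tgfbr2 and Acvr2a held none. Of 32544 mouse promoters of this length, 16.9% held at least 1. A match is a description of the letters, and the 2 genes that held it, Inhba and Tgfb2, went in opposite directions in Wnt-response cells.

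The genes fell into different cell types. Inhba, the βA subunit that pairs to form activin A (chromosome 13, 16011851 to 16031621, GRCm38), was a fibroblast transcript. It ran from 11.7 to 51.7 CPM in fibroblasts over the 6 libraries, against 1.95 to 13.02 CPM in pericytes and at most 6.39 CPM in any library of the other classes. Inhbb, the βB subunit (chromosome 1, 119415465 to 119422248), was at 4.64 to 9.43 CPM in fibroblasts and at most 2.17 CPM elsewhere. Gdf10, a ligand close to Bmp3 (chromosome 14, 33923587 to 33937983), was at 15.8 to 104 CPM in fibroblasts. Chondrocytes, which reached 20 cells only in E13.5 LOF and in replicate 1 of the E13.5 control, held 40.0 and 37.5 CPM of it, within the range of fibroblasts. Pericytes held 1.297 to 29.76 CPM of Gdf10, which overlapped with fibroblasts. The remaining classes held at most 7.91 CPM of it in any library.

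Of the 3 TGF-β ligands, Tgfb1 was highest in other classes than Tgfb2 and Tgfb3. Tgfb1 (chromosome 7, 25687002 to 25705077) was at 112 to 238 CPM in endothelial cells, 152 to 271 CPM in macrophages and 163 to 242 CPM in mast cells. These 3 ranges overlap. Below these came pericytes at 15.9 to 25.8 CPM, fibroblasts at 9.20 to 25.8 CPM and Schwann cells at 8.08 to 14.9 CPM, with overlap between neighbours. Tgfb2 (chromosome 1, 186622792 to 186705989) was highest in muscle, at 86.9 to 141 CPM, and in chondrocytes, at 85.3 CPM in E13.5 LOF, against 137 CPM in E13.5 control replicate 1. Pericytes at 34.8 to 91.2 CPM and fibroblasts at 13.9 to 63.5 CPM overlapped with each other. Schwann cells at 22.7 to 37.4 CPM and endothelial cells at 9.84 to 44.7 CPM also overlapped with fibroblasts. Tgfb3 (chromosome 12, 86056745 to 86079041) was at 23.3 to 34.2 CPM in muscle, 11.6 to 46.3 CPM in pericytes, 23.1 to 27.7 CPM in chondrocytes and 8.95 to 24.4 CPM in fibroblasts, with overlap throughout.

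Tgfbi, a secreted matrix protein that TGF-β is known to induce (chromosome 13, 56609523 to 56639562), was at 114 CPM in chondrocytes of E13.5 LOF, against 108 CPM in those of E13.5 control replicate 1. It was at 25.9 to 98.4 CPM in fibroblasts and 36.5 to 72.5 CPM in macrophages. Tgfbr2, the type II receptor of TGF-β (chromosome 9, 116084293 to 116175360), was at 54.1 to 133 CPM in endothelial cells, above most fibroblast libraries, which held 32.4 to 69.1 CPM. Keratinocytes had its lowest range, 3.45 to 6.43 CPM. Acvr2a, a type II receptor of activins (chromosome 2, 48814109 to 48903269), was the exception, with 10.3 to 27.5 CPM in keratinocytes, 12.9 to 30.1 CPM in muscle and 13.4 to 64.0 CPM in Schwann cells, against 6.40 to 21.8 CPM in fibroblasts.

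**Figure D1:**
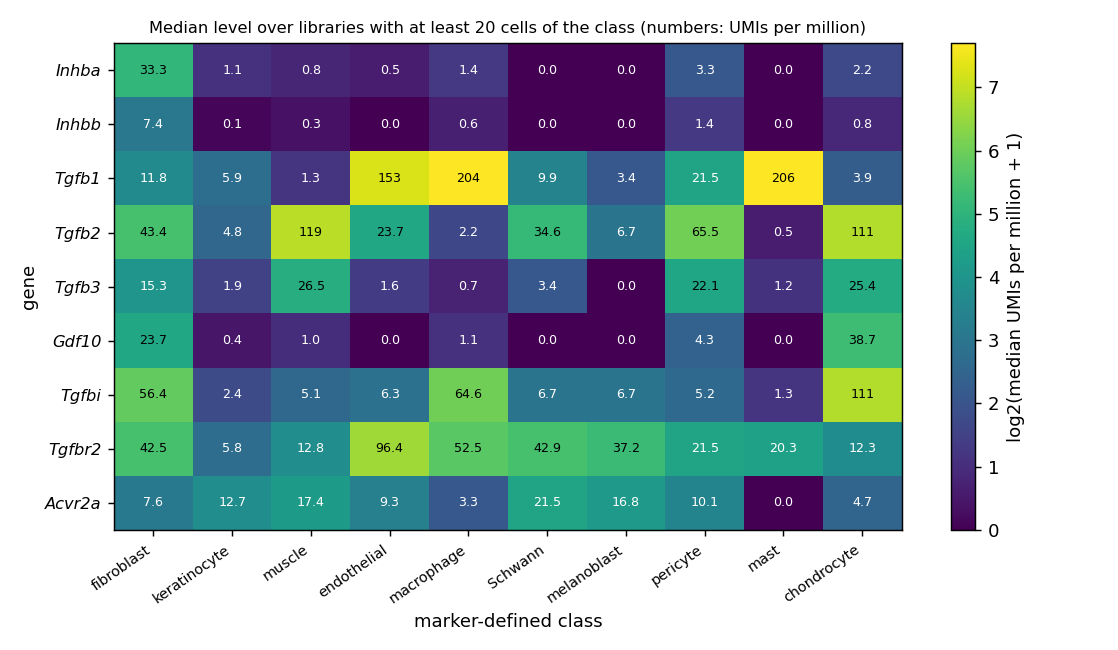
Each square gives the median CPM of a gene (rows) in a marker-defined class (columns) over the libraries with at least 20 cells of that class, coloured on the log2(CPM + 1) scale. Inhba and Inhbb are highest in the fibroblast column, Gdf10 in the chondrocyte and fibroblast columns, Tgfb1 in the endothelial, macrophage and mast columns, and Tgfb2 in the muscle and chondrocyte columns.

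Set against keratinocytes of the same libraries, fibroblasts held more of 8 of the genes and less of Acvr2a. The edgeR quasi-likelihood test on UMI sums with library as a block called all 9 at an adjusted p under 0.05, where 75.0% of the 14898 genes tested were called, 41.0% as higher and 34.0% as lower in fibroblasts. The log2 fold change was 6.68 for Inhbb (SE 0.38), 5.49 for Gdf10 (SE 0.13), 4.67 for Tgfbi (SE 0.14) and 4.46 for Inhba (SE 0.48, adjusted p = 6.73e-05). It was smaller for Tgfb1, at 0.97 (SE 0.21, adjusted p = 0.00267). Keratinocytes held 0 to 0.138 CPM of Inhbb over the 6 libraries, so the size of its fold change rests on a level near 0. Acvr2a was lower in fibroblasts in all 6 libraries, with a log2 fold change of −0.66 (SE 0.09, adjusted p = 0.000138). Of the other pathway genes, the activin type I receptor Acvr1b (log2 −2.56) and the type II receptor Acvr2b (log2 −1.49) were also lower in fibroblasts, while the endothelial-type receptors Eng (log2 5.31) and Acvrl1 (log2 2.37) were higher. The integrin subunit Itgb6, which frees latent TGF-β in epithelia, was lower in fibroblasts (log2 −5.23), and the TGF-β docking protein Lrrc32 was higher (log2 5.52).

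Between stages, no gene of the 9 passed the test in control fibroblasts, where 34 of 14431 genes (0.236%) were called. Tgfbi was at 28.7 and 25.9 CPM in E14.5 controls, against 98.4 and 83.4 CPM in E13.5 controls, a log2 fold change of −1.70 (SE 0.22, edgeR adjusted p = 0.0577). Tgfb2 was at 25.9 and 13.9 CPM in E14.5 controls, against 58.9 and 47.7 CPM in E13.5 controls (log2 −1.41, SE 0.31, edgeR adjusted p = 0.107). Tgfb3 was at 8.95 and 11.1 CPM in E14.5 controls, against 24.4 and 22.1 CPM in E13.5 controls (log2 −1.17, SE 0.28, edgeR adjusted p = 0.127). All 3 values are lower in both E14.5 libraries, with no overlap between stages, and DESeq2 called each, with adjusted p = 3.14e-07 for Tgfbi, 0.00198 for Tgfb2 and 0.0183 for Tgfb3. The edgeR call depended on the filter and on the libraries. With no filter on low counts all 3 passed (edgeR adjusted p = 0.00185 for Tgfbi, 0.0161 for Tgfb2 and 0.0476 for Tgfb3). Tgfbi and Tgfb2 passed without E14.5 control replicate 1 (edgeR adjusted p = 0.0152 for Tgfbi and 0.0134 for Tgfb2), and all 3 without replicate 2 (edgeR adjusted p = 0.00412 for Tgfbi, 0.0122 for Tgfb2 and 0.00647 for Tgfb3). Tgfbi also passed without E13.5 control replicate 2 (edgeR adjusted p = 0.0320). With the replicate number as a block Tgfbi (edgeR adjusted p = 0.00689) and Tgfb2 (edgeR adjusted p = 0.0177) passed.

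Inhba averaged 33.3 ± 2.89 CPM in E14.5 control and 49.0 ± 3.73 CPM in E13.5 control fibroblasts (SD, n = 2 each), a log2 fold change of −0.53 (SE 0.21, edgeR adjusted p = 0.280). Tgfb1 was at 18.6 and 25.8 CPM in E14.5 controls, against 12.6 and 9.64 CPM in E13.5 controls (log2 1.05, SE 0.32, edgeR adjusted p = 0.197), and it passed without E14.5 control replicate 1 (log2 1.34, edgeR adjusted p = 0.0341). Tgfb1 thus lay higher at E14.5 while Tgfb2 and Tgfb3 lay lower. None of these was called in the edgeR fit of all 4 libraries by stage alone with the filter on low counts. Inhbb was at 9.43 and 7.32 CPM in E14.5 controls, against 4.64 and 5.61 CPM in E13.5 controls (log2 0.73, SE 0.28, edgeR adjusted p = 0.261). Gdf10 had a log2 fold change of −0.74 (SE 0.38, edgeR adjusted p = 0.356). Acvr2a, at 19.04 and 6.40 CPM in E14.5 controls against 7.22 and 7.01 CPM in E13.5 controls, was high in replicate 1 at E14.5, the library with high Gm42418. Without that library its log2 fold change is −0.024, in place of 0.83, and without replicate 2 it is 1.34 (edgeR adjusted p = 0.00844). Tgfbr2, at 60.7 and 33.5 CPM in E14.5 controls against 42.9 and 32.4 CPM in E13.5 controls, had a log2 fold change of 0.33 (SE 0.30), and of −0.038 without E14.5 control replicate 1. Of the 17 responder genes, those known to be induced by TGF-β, 11 had a positive and 6 a negative log2 fold change, with a median of 0.45 beside 0.03 over all genes. Tagln, a smooth muscle gene, was the one called (log2 −2.58, SE 0.27, edgeR adjusted p = 0.0434), and Acta2 was at −2.31 (SE 0.28, edgeR adjusted p = 0.0577). The follistatin gene Fst, whose product binds activin, had a log2 fold change of 2.29 (SE 0.65, edgeR adjusted p = 0.171), and the co-receptor gene Tgfbr3 of 1.45 (SE 0.31, edgeR adjusted p = 0.101).

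In control keratinocytes 40 of 12475 genes (0.321%) were called between stages, none of the 7 members that passed the filter. Tgfb1 was at 13.3 and 15.5 CPM in E14.5 controls, against 4.26 and 3.13 CPM in E13.5 controls (log2 2.01, SE 0.33, edgeR adjusted p = 0.0717, DESeq2 adjusted p = 0.000341). Inhba was at 2.21 and 1.93 CPM in E14.5 controls, against 0.406 and 0.447 CPM in E13.5 controls (log2 2.31, SE 0.48, edgeR adjusted p = 0.114). These Inhba values rest on 45 and 28 UMIs at E14.5, against 6 and 5 UMIs at E13.5. Tgfbi went the other way, at 0.491 and 1.03 CPM in E14.5 controls, against 3.72 and 3.75 CPM in E13.5 controls (log2 −2.25, SE 0.53, edgeR adjusted p = 0.143). With no filter on low counts Inhba (edgeR adjusted p = 0.0229), Tgfb1 (edgeR adjusted p = 0.000122) and Tgfbi (edgeR adjusted p = 0.00858) passed. With the replicate number as a block Inhba (edgeR adjusted p = 0.0108), Tgfb1 (edgeR adjusted p = 0.000137) and Tgfbi (edgeR adjusted p = 0.00283) passed, though the labels do not say that the numbers mark a pairing. Without E14.5 control replicate 2 Tgfb1 (edgeR adjusted p = 0.0230), Tgfbi (edgeR adjusted p = 0.0247) and Acvr2a (edgeR adjusted p = 0.0422) passed, and without E13.5 control replicate 1 Tgfb1 did (edgeR adjusted p = 0.0350). Of 15 responders tested 12 had a positive log2 fold change, with a median of 0.73 beside 0.04 over all genes, and none was called. The largest were Timp3 at 1.83 (edgeR adjusted p = 0.0769), Skil at −1.45 (edgeR adjusted p = 0.127) and Cyr61 at 1.34 (edgeR adjusted p = 0.422).

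Wnt-response fibroblasts were those with at least 3 UMIs of Lef1, Axin2, Nkd1, Apcdd1, Sp5 and Notum together, after each cell had been thinned to 3000 UMIs. The other fibroblasts were those with 0. Within every library Inhba and Tgfb1 were higher in Wnt-response cells, and Gdf10, Tgfb2, Tgfb3, Tgfbi, Tgfbr2 and Acvr2a were lower. The edgeR test, with library as a block, called these 8 genes, 2 higher and 6 lower, where 35.1% of 13255 genes were called, 15.5% higher and 19.5% lower. The 9 genes took no part in sorting cells, but Inhba and Gdf10 were chosen on a LOF change of beta-catenin, so the test was repeated in the 4 control libraries alone, an alternative added after seeing the data, and the same 8 calls held there.

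At E14.5 Inhba was at 46.2 CPM in Wnt-response and 9.05 CPM in other cells of the LOF library, at 71.6 and 17.6 CPM in those of control replicate 1, and at 61.7 and 18.7 CPM in those of replicate 2. At E13.5 it was at 63.3 CPM in Wnt-response and 9.72 CPM in other cells of the LOF library, at 103 and 35.4 CPM in control replicate 1, and at 78.9 and 35.4 CPM in replicate 2. Every Wnt-response value lies above every other value, with a log2 fold change of 1.77 (SE 0.18, edgeR adjusted p = 7.26e-05), and 1.59 (SE 0.14) in controls alone. Tgfb1 moved with it, at 19.8 to 45.0 CPM in Wnt-response cells and 6.42 to 18.4 CPM in the others (log2 1.46, SE 0.10, edgeR adjusted p = 2.25e-07).

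Gdf10 ran the other way. At E14.5 it was at 6.08 CPM in Wnt-response and 34.8 CPM in other cells of the LOF library, at 3.64 and 24.8 CPM in control replicate 1, and at 6.37 and 24.3 CPM in replicate 2. At E13.5 it was at 16.9 CPM in Wnt-response and 108 CPM in other cells of the LOF library, at 8.97 and 49.6 CPM in control replicate 1, and at 3.69 and 22.8 CPM in replicate 2. The groups of values do not overlap (log2 −2.53, SE 0.12, edgeR adjusted p = 6.97e-09, and log2 −2.47, SE 0.15, in controls alone).

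Tgfb2 and Tgfb3 were on the side of Gdf10. Tgfb2 was at 2.39 to 16.9 CPM in Wnt-response cells and 17.0 to 74.6 CPM in the others (log2 −2.70, SE 0.17), a difference of −1.59 with Wnt-response cells taken from 2 UMIs up and −4.19 from 5 up. Tgfb3 was at 0 to 7.17 CPM in Wnt-response cells and 12.6 to 29.7 CPM in the others (log2 −2.13, SE 0.24), where the 0 is E13.5 LOF, with 36 Wnt-response cells and a level of up to 6.33 CPM allowed by a count of 0. The 3 TGF-β ligands of fibroblasts thus divided, Tgfb1 to the Wnt-response cells and Tgfb2 and Tgfb3 to the others. Tgfbi had a log2 fold change of −1.27 (SE 0.21), and the values of E14.5 LOF were close, at 29.2 CPM in Wnt-response and 29.3 CPM in other cells.

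The receptors were lower in Wnt-response cells by less. Tgfbr2 was at 15.1 to 36.5 CPM in Wnt-response cells and 35.3 to 73.8 CPM in the others (log2 −1.06, SE 0.10, edgeR adjusted p = 2.15e-06). Acvr2a had a log2 fold change of −0.61 (SE 0.13, edgeR adjusted p = 0.00290), lower in 6 of 6 libraries, and of −1.08 with Wnt-response cells taken from 5 UMIs up. Inhbb was lower in 5 of 6 libraries and did not pass the test (log2 −0.56, SE 0.23, edgeR adjusted p = 0.0784), while without E14.5 LOF it did, with a log2 fold change of −0.75.

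**Figure D2:**
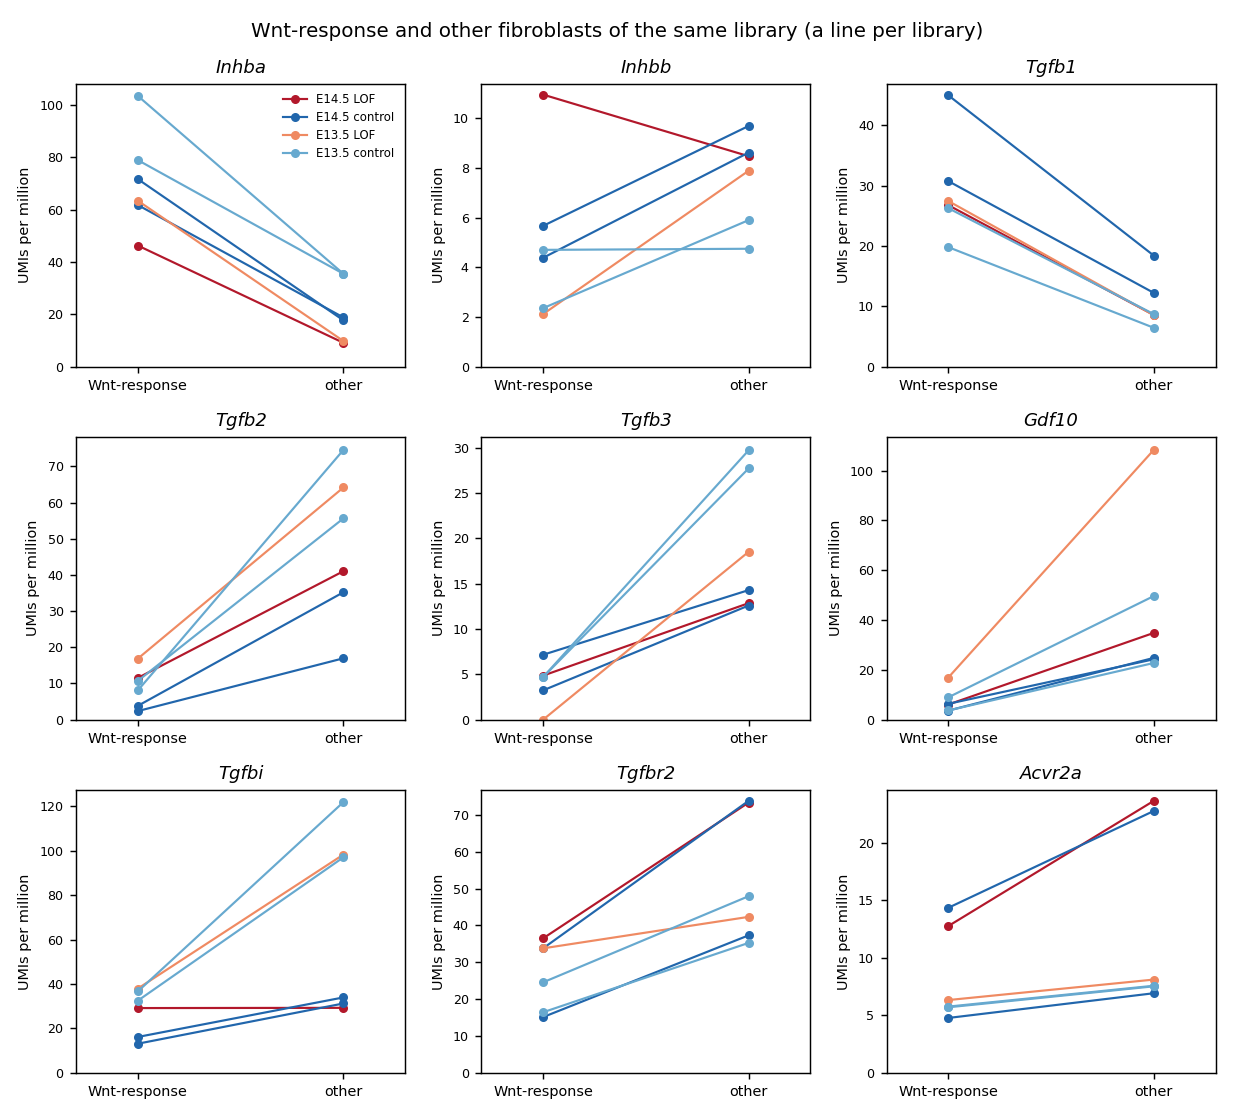
CPM of each gene in Wnt-response fibroblasts (left) and in other fibroblasts (right), with a line for each of the 6 libraries, coloured by group. Lines of Inhba and Tgfb1 fall to the right in every library, and those of Gdf10, Tgfb2 and Tgfb3 climb.

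Other genes of the pathway were read from fixed lists in the same contrast, beside a median log2 fold change of −0.03 over all genes tested. Of 17 responders 16 were tested, with a median log2 fold change of −1.53, 14 of them negative and 2 positive. The test called 11 as lower and 0 as higher in Wnt-response cells, where 19.5% of all genes were called lower and 15.5% higher. Among those called were the matrix genes Postn (log2 −2.73) and Tnc (log2 −2.19), the smooth muscle actin gene Acta2 (log2 −2.14) and the tendon factor Scx (log2 −3.04). Of 20 extracellular regulators 18 were tested, 16 of them with a negative and 2 with a positive log2 fold change, and 11 were called lower and 1 higher. The one called higher was Lrrc32 (log2 1.78, SE 0.30), which holds latent TGF-β at the cell surface. Those called lower included the latency activator Thbs1 (log2 −2.11), its paralog Thbs2 (log2 −3.52), and the latent TGF-β binding proteins Ltbp2 (log2 −3.18), which also stands in the responder list, and Ltbp3 (log2 −1.39). Of 8 receptors 7 were tested: Acvr2b was higher (log2 0.63), and Acvr1 (log2 −0.65) and Acvrl1 (log2 −1.35) were lower. Of 11 Smads and co-repressors only Ski, a repressor of Smad signals, was called (log2 −0.48), and of 4 other ligands tested only Bmp3 (log2 −1.50).

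Cells with at least 3 thinned UMIs of the lower dermis genes Dpt, Mfap5, Clec3b and Tnxb showed another division, given as values with no test. At E13.5 these cells numbered 144 in LOF and 72 and 28 in the controls, so the E13.5 values rest on few cells. Inhba was at 1.96 to 18.0 CPM in lower dermis cells and 14.2 to 56.9 CPM in cells with 0, lower in all 6 libraries. Tgfb1 was lower in all 6 libraries as well, and Tgfbr2 and Inhbb were higher in all 6. Gdf10 was higher in 5 libraries, at 53.1 against 10.99 CPM in E14.5 LOF, 37.2 against 7.66 CPM and 42.3 against 9.43 CPM in the E14.5 controls, and 47.1 against 35.5 CPM and 36.0 against 15.6 CPM in the E13.5 controls. In E13.5 LOF it was at 99.3 CPM in lower dermis cells and 104 CPM in the rest. Condensate cells, with at least 3 UMIs of Sox2, Sox18, Foxd1, Ptch1 and Gli1, reached 20 cells in E14.5 LOF (41 cells) and E14.5 control replicate 1 (113 cells) only. Inhba there was at 26.1 and 76.4 CPM in condensate cells and 13.7 and 32.3 CPM in cells with 0.

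In the LOF embryos the fibroblast level of Inhba was low and that of Gdf10 high at both stages. Inhba was at 13.9 CPM (95% Poisson interval 12.7 to 15.2) in E14.5 LOF, against 35.3 and 31.2 CPM in E14.5 controls. At E13.5 it was at 11.7 CPM (10.7 to 12.7) in LOF, against 51.7 and 46.4 CPM in controls. Both LOF values lie below every control value. Gdf10 was at 29.5 CPM (27.7 to 31.3) in E14.5 LOF, against 15.8 and 16.5 CPM in E14.5 controls, and at 104 CPM (101 to 107) in E13.5 LOF, against 37.7 and 17.9 CPM in E13.5 controls. The E13.5 controls thus differed from each other by more than the counting error. Intervals cover counting error only, and no test is given since both genes were picked on these values.

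**Figure D3:**
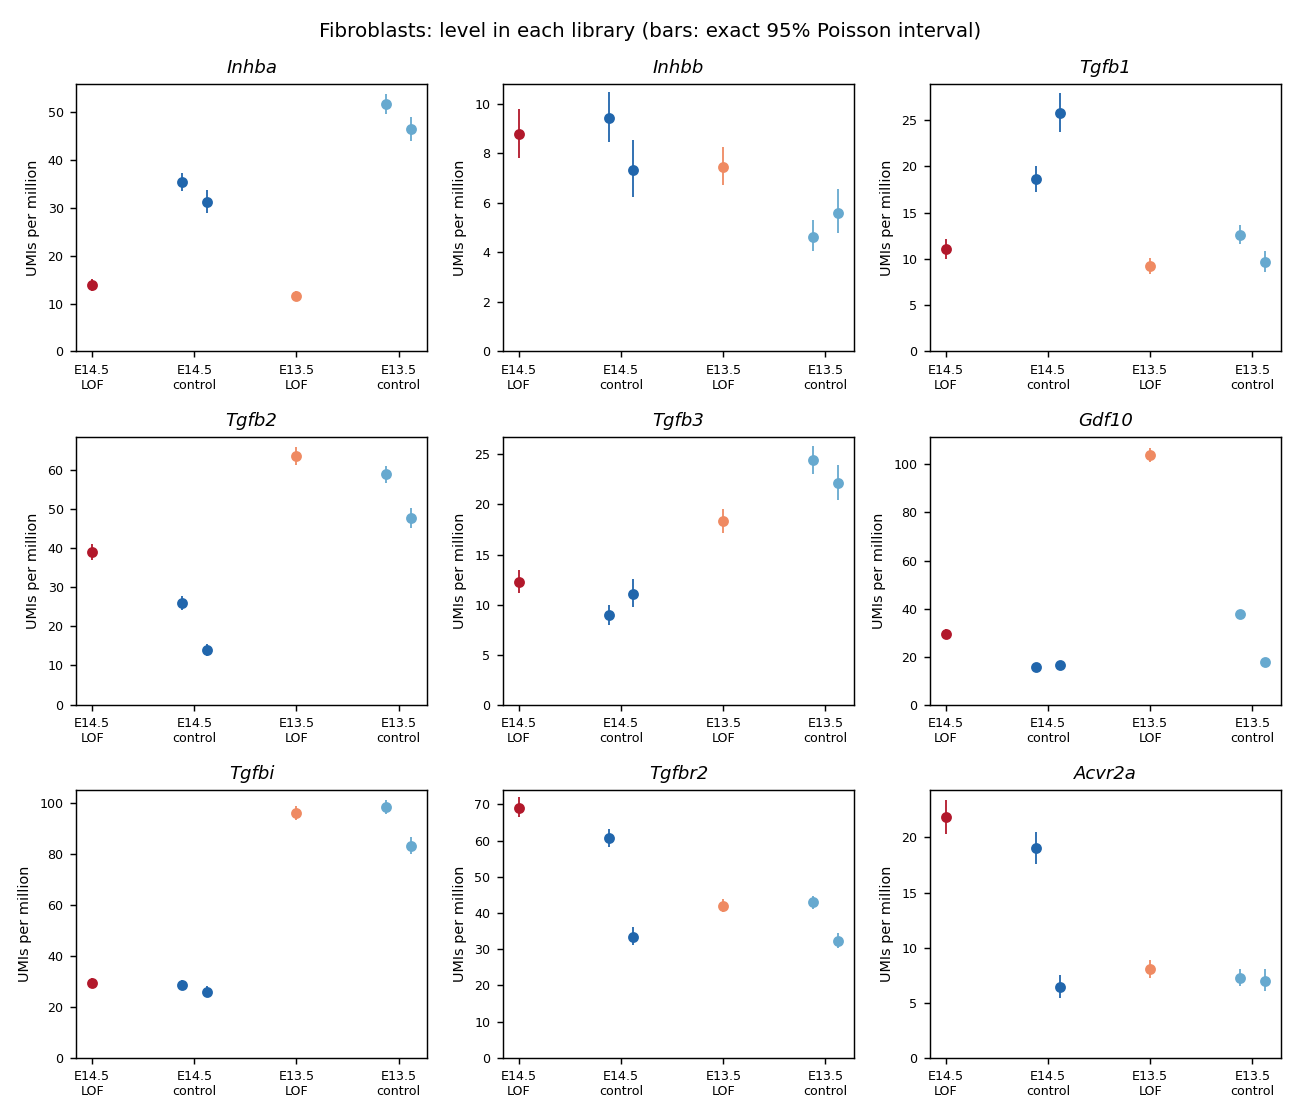
CPM of each gene in fibroblasts of each library (points, with exact 95% Poisson intervals), with LOF left of the controls of its stage. Inhba lies between 11.7 and 13.9 CPM in LOF and between 31.2 and 51.7 CPM in controls. Acvr2a is at 21.8 CPM in E14.5 LOF and 19.04 CPM in 1 of the E14.5 controls, while the remaining 4 lie between 6.40 and 8.06 CPM.

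For the other 7 genes the edgeR fit, with stage as a covariate, gave no call. It called 0 of 14962 genes (0%), with 1218 genes at an unadjusted p under 0.05, and DESeq2 called 271, none of them among the 7. Tgfb1 was at 11.05 CPM in E14.5 LOF, against 18.6 and 25.8 CPM in controls, and at 9.20 CPM in E13.5 LOF, against 12.6 and 9.64 CPM (log2 −0.68, SE 0.30, edgeR adjusted p = 0.640). Tgfb2 was at 39.0 CPM in E14.5 LOF, against 25.9 and 13.9 CPM, and at 63.5 CPM in E13.5 LOF, against 58.9 and 47.7 CPM (log2 0.58, SE 0.26, edgeR adjusted p = 0.660). Acvr2a was at 21.8 CPM in E14.5 LOF, against 19.04 and 6.40 CPM, and at 8.06 CPM in E13.5 LOF, against 7.22 and 7.01 CPM (log2 0.46, SE 0.38, edgeR adjusted p = 0.815). Inhba and Tgfb1 lay below both controls of their stage at both stages, as did 14.1% of all genes, and Gdf10, Tgfb2 and Acvr2a above both, as did 20.9%, so for the genes not picked on this contrast these positions are common. E14.5 LOF and E14.5 control replicate 1 are the libraries with high Gm42418, and Tgfbr2 was at 69.1 and 60.7 CPM in these 2, against 33.5 CPM in E14.5 control replicate 2. The part of that library difference was not tested.

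Tgfbi, at 29.5 CPM in E14.5 LOF against 28.7 and 25.9 CPM, and 96.0 CPM in E13.5 LOF against 98.4 and 83.4 CPM, had a log2 fold change of 0.04 (SE 0.14). Tgfb3 was at 12.2 CPM in E14.5 LOF, against 8.95 and 11.1 CPM, and at 18.3 CPM in E13.5 LOF, against 24.4 and 22.1 CPM (log2 −0.08, SE 0.23), so it lay above the controls at one stage and below them at the other. Inhbb was at 8.78 CPM in E14.5 LOF, against 9.43 and 7.32 CPM, and at 7.47 CPM in E13.5 LOF, against 4.64 and 5.61 CPM (log2 0.26, SE 0.21). Tgfbr2 at E13.5 was at 42.0 CPM in LOF, against 42.9 and 32.4 CPM (log2 0.32, SE 0.23). The edgeR adjusted p was 0.811 or more for these 4. Of the 17 responders 15 had a positive log2 fold change with a median of 0.51, beside 0.03 over all genes, and none was called. Fst was at a log2 fold change of 2.03 (SE 0.56, edgeR adjusted p = 0.423) and Postn of 1.15 (SE 0.36, edgeR adjusted p = 0.465), with Timp3 at 0.86 (SE 0.20, edgeR adjusted p = 0.366). The LOF effect at E14.5 minus that at E13.5 was called for 0 of 15537 genes (0%, with 200 at an unadjusted p under 0.05 and 5 by DESeq2), with −0.80 for Tgfb1 (SE 0.55) and 0.70 for Tgfb2 (SE 0.52) on the log2 scale.

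**Figure D4:**
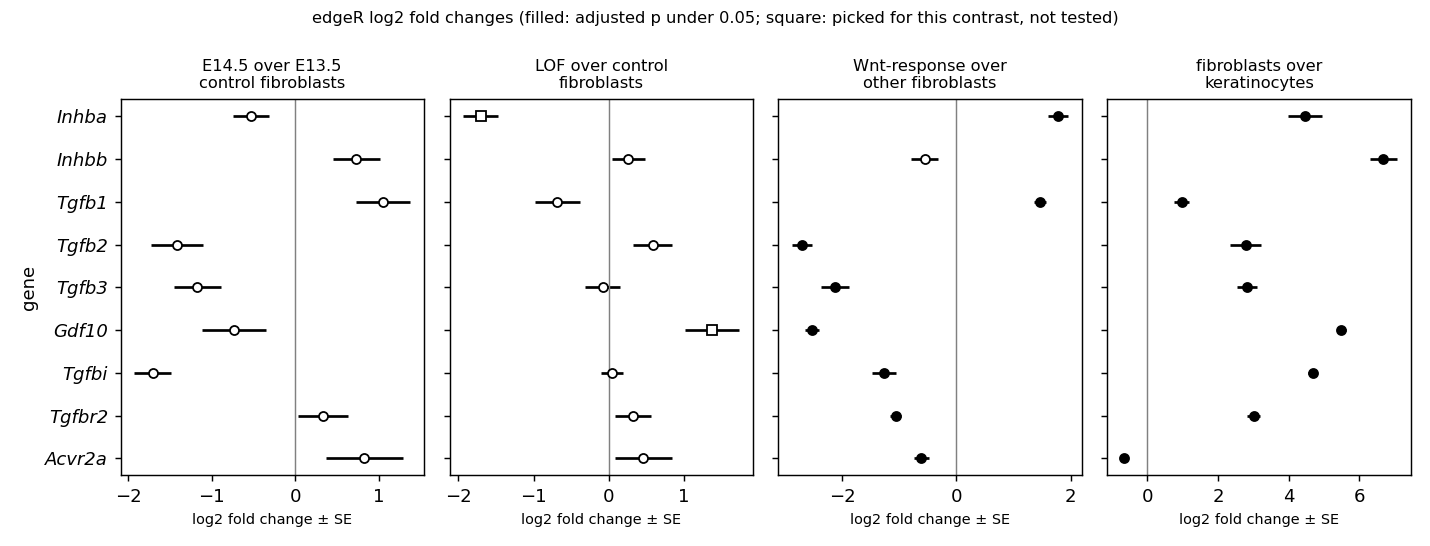
Log2 fold change with its SE for each gene in 4 comparisons, from edgeR fits to UMI sums per library (some bars are shorter than the marker). Filled points have an adjusted p under 0.05: none in the stage and LOF panels, 8 in the Wnt-response panel and 9 in the panel of fibroblasts over keratinocytes. Squares mark Inhba and Gdf10 in the LOF panel, which were picked on that contrast.

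Other features of the fibroblasts moved with genotype, and their part in these values was not tested. Wnt-response cells were 4.83% (95% binomial interval 4.21 to 5.51) of E14.5 LOF fibroblasts, against 16.0% and 12.9% in controls, and 0.805% (0.564 to 1.11) of E13.5 LOF fibroblasts, against 9.37% and 9.14%. Lower dermis cells were 29.1% of E14.5 LOF fibroblasts, against 13.1% and 11.2%, and 3.22% of E13.5 LOF fibroblasts, against 1.59% and 0.850%. Twist2, a factor of dermal fibroblasts, was at 339 CPM in E14.5 LOF, against 603 and 802 CPM, and at 156 CPM in E13.5 LOF, against 453 and 495 CPM. Meox1, a somite factor, was at 33.6 CPM in E14.5 LOF, against 7.65 and 2.84 CPM, and at 147 CPM in E13.5 LOF, against 40.0 and 15.6 CPM. Pitx1, a hindlimb factor, was at 87.9 CPM in E13.5 LOF, against 41.2 and 9.12 CPM, so the E13.5 controls also differed from each other in Meox1 and Pitx1, in the order of their Gdf10 levels.

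On each side of the Wnt-response division Inhba in LOF lay below both controls of its stage. Among cells with 0 Wnt-response UMIs, Inhba in E14.5 LOF was 0.513 and 0.483 times its level in the 2 controls, and in E13.5 LOF 0.274 times that in each control. Among Wnt-response cells the ratios were 0.645 and 0.749 at E14.5 and 0.613 and 0.803 at E13.5, where E13.5 LOF rests on 30 UMIs in 36 cells. Gdf10 in cells with 0 was 1.40 and 1.44 times its control level at E14.5 and 2.18 and 4.76 times at E13.5. Among Wnt-response cells it was 1.67 and 0.955 times its control level at E14.5, with 10 UMIs in LOF, and 1.88 and 4.58 times at E13.5, with 8 UMIs in LOF. These ratios share their LOF library with the values above and are no separate evidence.

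The share of fibroblasts with at least 1 UMI, at 3000 UMIs per cell, followed the levels. Inhba was detected in 3.79% of E14.5 LOF fibroblasts, against 9.91% and 9.03% in controls, and in 3.55% of E13.5 LOF fibroblasts, against 12.9% and 11.9%. Without thinning these shares were 8.20% in E14.5 LOF, against 23.7% and 17.7%, and 8.96% in E13.5 LOF, against 30.5% and 26.7%. Gdf10 was detected in 7.45% of E14.5 LOF fibroblasts, against 4.10% and 4.62%, and in 22.5% of E13.5 LOF fibroblasts, against 10.3% and 5.31%. Unthinned shares were 16.2% in E14.5 LOF, against 11.3% and 8.77%, and 46.6% in E13.5 LOF, against 22.5% and 11.1%. In keratinocytes thinned shares were at most 1.03% for Inhba and 0.980% for Gdf10. In E14.5 control replicate 1 Inhba was at 2.21 CPM in keratinocytes and 35.3 CPM in fibroblasts, and Lum at 12.96 and 1518 CPM. In E13.5 control replicate 1 Inhba was at 0.406 and 51.7 CPM, and Lum at 19.69 and 958.5 CPM. Whether the Inhba UMIs of keratinocytes were background from fibroblasts was not tested.

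**Figure D5:**
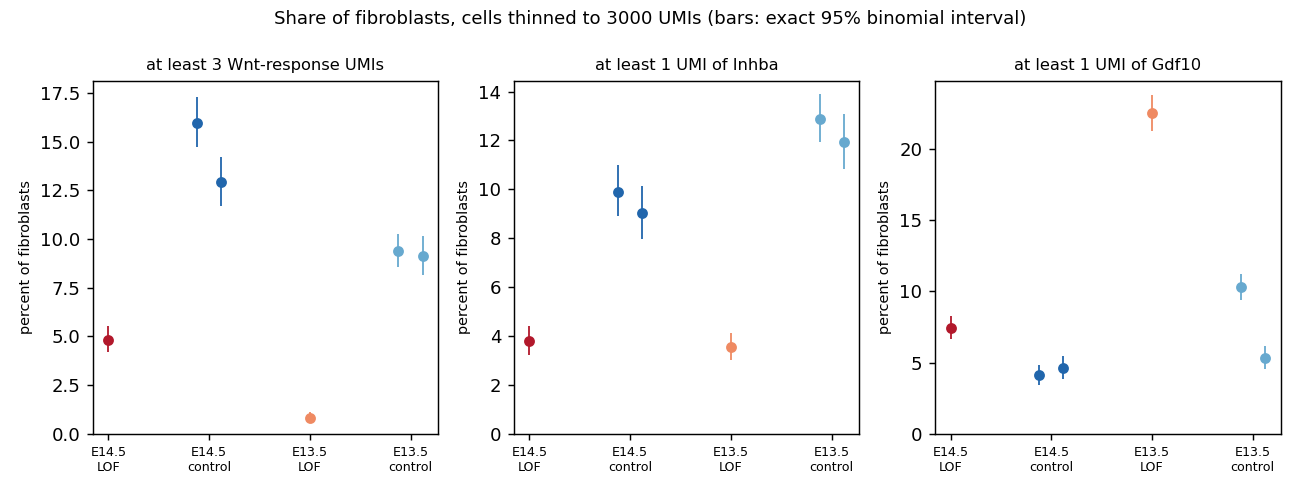
Percent of fibroblasts, each thinned to 3000 UMIs, with at least 3 Wnt-response UMIs (left), at least 1 UMI of Inhba (middle) and at least 1 UMI of Gdf10 (right), with exact 95% binomial intervals over cells. LOF libraries lie below the controls of their stage in the first 2 panels and above them in the third.

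Cells with Inhba held Gdf10 less often than cells without it in each of the 6 libraries, as a description. The thinned share with Gdf10 was 1.22% of Inhba-positive and 7.69% of Inhba-negative cells in E14.5 LOF. It was 0.926% of positive and 4.45% of negative cells, and 2% and 4.88%, in the E14.5 controls. At E13.5 it was 16.4% of positive and 22.7% of negative cells in LOF, and 8.23% and 10.6%, then 4.07% and 5.48%, in controls. The exact 95% binomial intervals of positive and negative cells did not overlap in E14.5 LOF and E14.5 control replicate 1, and overlapped in the other 4 libraries.

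In keratinocytes, which the Pdgfra driver does not target, the LOF fit called 0 of 12751 genes (0%, with 216 at an unadjusted p under 0.05 and 4 by DESeq2). Inhba was at 1.80 CPM in E14.5 LOF, against 2.21 and 1.93 CPM, and at 0.339 CPM in E13.5 LOF, against 0.406 and 0.447 CPM. Gdf10 was at 0.404 CPM in E14.5 LOF, against 0.295 and 0.275 CPM, and at 2.79 CPM in E13.5 LOF, against 0.947 and 0.357 CPM. It lay above both controls of its stage, as in fibroblasts. In E13.5 LOF, Gdf10 was at 2.79 CPM in keratinocytes and 104 CPM in fibroblasts, and Lum at 21.3 and 936 CPM. Whether the Gdf10 UMIs of keratinocytes were background from fibroblasts was not tested. Tgfb1 was at 7.59 CPM in E14.5 LOF, against 13.3 and 15.5 CPM, and at 2.79 CPM in E13.5 LOF, against 4.26 and 3.13 CPM (log2 −0.71, SE 0.27, edgeR adjusted p = 0.985). Tgfb1 was thus below both controls of its stage in both classes, without a call in either.

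Within the LOF libraries, 2609 and 2085 fibroblasts at E14.5 and E13.5 held eGFP and no tdTomato UMIs, and 131 and 88 held tdTomato alone. The edgeR fit of eGFP-only over tdTomato-only cells called 58 of 13067 genes (0.444%) and none of the 9. Tgfb2 came nearest (log2 0.57, SE 0.18, edgeR adjusted p = 0.181). Inhba was at 14.5 CPM in eGFP-only and 23.4 CPM in tdTomato-only cells at E14.5, and 11.8 and 9.41 CPM at E13.5. The Inhba values of tdTomato-only cells rest on 27 UMIs at E14.5 and 10 UMIs at E13.5. The responders Tagln (log2 −0.91) and Acta2 (log2 −0.63) were lower in eGFP-only cells. In fibroblasts of the LOF libraries tdTomato was at 4.88 and 3.26 CPM at E14.5 and E13.5, below its 10.5 and 5.69 CPM in muscle of the same libraries. In keratinocytes it ran from 39.6 to 1038 CPM over the 6 libraries. Whether the tdTomato UMIs of fibroblasts were background was not tested, so tdTomato-only cells are not shown to have kept beta-catenin.

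The fibroblast threshold was passed narrowly by cells with 15 to 19 collagen UMIs. Inhba in these was at 33.9 CPM in E14.5 LOF, against 89.8 and 68.2 CPM in E14.5 controls, and at 18.6 CPM in E13.5 LOF, against 58.6 and 72.6 CPM in E13.5 controls. Just outside, in cells with 10 to 14, it was at 53.1 CPM in E14.5 LOF, against 57.2 and 58.5 CPM, and at 9.81 CPM in E13.5 LOF, against 80.0 and 66.6 CPM. The LOF value thus lay close to the controls just outside the threshold at E14.5, where it rests on 15 UMIs in 35 cells, and far below them at E13.5. Gdf10 just inside was at 7.54 CPM in E14.5 LOF, against 3.90 and 4.26 CPM, and at 82.3 CPM in E13.5 LOF, against 25.9 and 11.8 CPM. Just outside it was at 0 CPM in E14.5 LOF, against 5.20 and 1.89 CPM, and at 68.7 CPM in E13.5 LOF, against 24.4 and 3.28 CPM. The E14.5 values of Gdf10 just inside rest on 2 UMIs in LOF and on 1 and 3 UMIs in the controls. Those just outside rest on 0 UMIs in LOF and 1 UMI in each control, so neither shows a direction at E14.5. Over 54 sums of a class in a library, the genes most like Inhba by Pearson correlation of log2(CPM + 1) were Egfl6 (r = 0.834), Twist2 (r = 0.823), Emilin3 (r = 0.821), Glt8d2 and Tmem132c (r = 0.810 each), among 8805 candidates. Among those most like Gdf10 were Col8a2 (r = 0.895), Sfrp2 (r = 0.872), Spock3 (r = 0.871) and Wscd2 (r = 0.865). The sums share libraries and class markers, so these are a description.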

How the data were processed

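The deposited matrices hold raw UMI counts per gene and barcode, with no normalization. The reads were processed by the authors with Cell Ranger and Seurat on mm10 (GRCm38), versions not given, per the submitters' processing notes. The deposited barcodes were already filtered to cells, with at least 2568 UMIs each. Barcodes with under 1000 UMIs, under 500 genes or over 10% mitochondrial UMIs were dropped. A cell took the class whose marker rule it met. A cell of the fibroblast rule that also met the muscle, pericyte or chondrocyte rule took that other class, and further cells meeting several rules were left out as mixed (102 to 358 per library), which stands in for doublet removal. UMI counts were summed per library and class and tested with edgeR 4.0.16 in R 4.3.3 (quasi-likelihood, robust, TMM, filterByExpr, Benjamini-Hochberg over all genes tested). A call is an adjusted p under 0.05. Each SE is the log2 change over the root of F. DESeq2 1.42.0 was an alternative. Thinning drew 3000 UMIs per cell without replacement, leaving out at most 102 shallower fibroblasts per library. The edgeR steps were tested on simulated data. Members, lists and library pairs were chosen with earlier results of these data known. The text names all 9 members, examples of the other pathway genes past the test or, in the stage and genotype comparisons, among the 3 largest other log2 changes, and the 5 genes most like Inhba and Gdf10, of which 1 is not reported here; other genes were named after their values were seen. The titles carry no replicate numbers, though 1 control of each stage is tagged as a replicate, so numbers follow accession order and replicate 2 is the tagged library.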

Additional observations from a re-analysis of the deposited data

Results flagged for a closer look

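The eGFP row lies outside the comparisons of stage and class and was above the level of its group's other library in 2 controls labelled WT. In fibroblasts eGFP was at 92.03 CPM in E14.5 control replicate 2 and at 118.4 CPM in E13.5 control replicate 2, against 5.30 and 2.99 CPM in replicate 1 of each stage. At least 1 eGFP UMI was present in 46.3% and 54.4% of fibroblasts of these 2 libraries, against 5.48% and 3.12% in replicate 1. The same libraries had Pdgfra at 61.6 and 50.8 CPM in fibroblasts, against 164 and 86.7 CPM in replicate 1 of E14.5 and E13.5. Keratinocytes of all 4 controls held tdTomato, as given above. The source of the reporter transcripts in controls was not tested.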

How the results depend on the processing

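The 8 Wnt-response calls and the 9 calls of fibroblasts over keratinocytes held in every alternative run for them, and no member lost a call in any comparison. Inhbb in fibroblasts over keratinocytes moved most, to 4.09 with class rules alone. Counts of calls over all genes moved more. For stage in fibroblasts the 34 calls became 963 with DESeq2, 0 with library totals, 714 with no filter, 1753 with a term for library pairs over 6 libraries, and 0 with raised class thresholds or with class rules alone. Leaving out 1 library gave 380 to 3575. For stage in keratinocytes the 40 calls became 448 with DESeq2, 0 with totals, 779 with no filter, 1287 with the pair term, 167 with lowered and 24 with raised thresholds, and 66 to 2230 without 1 library. A replicate block gave 892 calls in fibroblasts and 1146 in keratinocytes, with Tgfb2 and Tgfbi called in fibroblasts and Inhba, Tgfb1 and Tgfbi in keratinocytes. The labels name no litter, batch or day behind the numbers, and there are 2 pairs. The main tests therefore did not take the numbers to pair libraries. The pair term used pairs inferred from Gm42418, Hist1h1b, Gstp1 and Pgk1. These were replicate 2 of both controls, and replicate 1 of each stage with the LOF library of that stage. Only the pair of replicate 2 controls holds both stages, so under that term the stage effect rests on these libraries. Both replicate 2 libraries had eGFP and high Gstp1, and differences between replicates correlated between stages at 0.351 in fibroblasts and 0.370 in keratinocytes. For genotype in fibroblasts 0 calls became 271 with DESeq2, 6 with no filter, 200 with the pair term and 0 to 1 without 1 library. In keratinocytes 0 became 4 with DESeq2 and 12 with the pair term, and for genotype by stage 5 with DESeq2. The 58 reporter calls became 4 with DESeq2 and 29 with no filter. At 2 reporter UMIs fewer than 50 tdTomato-only cells were left, so that alternative was not run. The cause of these moves was not tested.

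Of 769 member fold changes under alternatives, 713 kept direction and side of the threshold, 33 passed it, 4 moved and 19 changed sign. Without 1 library, log2 changes that changed sign ran, for stage in fibroblasts, from −0.038 to 0.61 for Tgfbr2 and −0.024 to 1.34 for Acvr2a. For stage in keratinocytes they ran from −0.020 to 0.89 for Tgfb3, −0.0083 to 0.76 for Tgfbr2 and −0.056 to 1.13 for Acvr2a. For genotype they ran from −0.0020 to 0.50 for Inhbb and −0.38 to 0.20 for Tgfb3 in fibroblasts, and from −0.075 to 0.56 for Acvr2a in keratinocytes. The pair term gave −0.034 and −0.26 for Acvr2a by stage in fibroblasts and keratinocytes. Raised thresholds gave −0.075 for Tgfbi by genotype in fibroblasts, and class rules alone 0.027 for Tgfb2 in keratinocytes. For genotype by stage Tgfbi was 0.032 with totals, 0.0022 with no filter, 0.081 with raised thresholds and 0.0057 without the top 5% of barcodes. For the reporter, Tgfb1 was 0.040 and Acvr2a 0.0026 with no filter, and Tgfbr2 −0.0096 with totals.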

Other observations

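Genotype in fibroblasts rests on 1 LOF library per stage, and leaving out 1 of them moves the description of the picked genes. Inhba had a log2 fold change of −1.33 without E13.5 LOF and −2.11 without E14.5 LOF, beside −1.70 with both. Gdf10 had 0.78 without E13.5 LOF and 1.88 without E14.5 LOF, beside 1.37 with both. The lone LOF library is then assumed to vary like the controls.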
